A study of Mus musculus with 6 samples.

Results

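The genes described here are the metallothioneins *Mt1* and *Mt2*, the hepcidins *Hamp* and *Hamp2*, and 6 genes of iron handling: *Trf*, *Tfrc*, *Tfr2*, *Slc40a1*, *Fth1* and *Ftl1*. They were chosen by symbol, and all 10 were found among the 55487 gene rows of the count files. They were measured by RNA sequencing of mouse hepatocytes in 2 groups of 3 libraries. The C75S group came from mice homozygous for AEG-1-C75S, in which AEG-1, an endoplasmic reticulum protein encoded by *Mtdh*, has serine in place of the cysteine that is palmitoylated. The WT group carried wild-type AEG-1 (AEG-1-WT). Crosses between heterozygotes gave the mice of each genotype, which were adults of 6 to 8 weeks. Total RNA was taken 48 h after the cells had been isolated, and every sample carries the treatment label Control. The medium and its iron, zinc and hormone content are not given in the sources used here. Whether libraries of 1 genotype are from different mice is not labelled, and p-values therefore measure the spread between libraries, which may be technical.

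Hepatocytes store iron and secrete both its carrier and its hormone. Iron circulates bound to transferrin, enters cells through transferrin receptor 1, is stored inside ferritin shells of heavy and light subunits, and leaves through ferroportin. Hepcidin, a secreted peptide, causes ferroportin to be degraded, and its gene is switched on by bone morphogenetic protein (BMP) signals through SMAD proteins and by interleukin-6 through STAT3. Iron regulatory proteins bind a short hairpin, the iron-responsive element, in several of these mRNAs: in a 5′ UTR they block translation, and in a 3′ UTR they protect the mRNA. Metallothioneins are small cysteine-rich proteins that bind zinc and copper, and metals switch on their genes through the factor MTF1.

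The hairpin sequences are shown because they set apart the members with a known control by cellular iron. The pattern was a C, any 5 bases and the loop CAGTGN, with all 5 pairs of the upper stem formed (G-U pairs allowed), on the sense strand of the UTRs of 1 principal GENCODE M21 transcript per coding gene. It was found in 4 of the 10 members, in 0.106% of all 19800 5′ UTRs and in 0.521% of all 19961 3′ UTRs. Each site is written 5′ to 3′, with the bulged C and the 6-base loop in capitals. In GRCm38 they lie at chr19:9982731-9982760 (plus strand, *Fth1*), chr7:45459779-45459808 (minus strand, *Ftl1*) and chr1:45925465-45925494 (minus strand, *Slc40a1*). The 4 sites that the pattern found in *Tfrc*, in order on the plus strand, lie at chr16:32631218-32631247, chr16:32631597-32631626, chr16:32631662-32631691 and chr16:32631709-32631738. A hairpin that departs from the pattern would be missed, and the letters a to d give only the order of the sites found.
Fth1, 5′ UTR: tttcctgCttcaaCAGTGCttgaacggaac
Ftl1, 5′ UTR: tgtcttgCttcaaCAGTGTttgaacggaac
Slc40a1, 5′ UTR: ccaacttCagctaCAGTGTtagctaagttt
Tfrc, 3′ UTR, site a: taattatCggaagCAGTGCcttccataatt
Tfrc, 3′ UTR, site b: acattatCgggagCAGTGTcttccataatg
Tfrc, 3′ UTR, site c: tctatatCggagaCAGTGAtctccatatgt
Tfrc, 3′ UTR, site d: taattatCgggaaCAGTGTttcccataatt
The sites of *Fth1*, *Ftl1* and *Slc40a1* lie before the coding sequence and those of *Tfrc* after it. The pattern was not found in the searched transcripts of *Trf*, *Tfr2*, *Mt1*, *Mt2*, *Hamp* and *Hamp2*.

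For the hepcidin genes, which were barely detected, the known control lies before the gene. The letters sought were GGCGCC, the core of the BMP-responsive element, and TTCNNNGAA, the STAT core; both read the same on either strand, and they do not overlap each other in these windows. The windows are the 250 bases before the RefSeq start in GRCm38.p6, on the minus strand, at chr7:30944030-30944279 for *Hamp* and chr7:30924182-30924431 for *Hamp2*, with the matched letters in capitals.
Hamp: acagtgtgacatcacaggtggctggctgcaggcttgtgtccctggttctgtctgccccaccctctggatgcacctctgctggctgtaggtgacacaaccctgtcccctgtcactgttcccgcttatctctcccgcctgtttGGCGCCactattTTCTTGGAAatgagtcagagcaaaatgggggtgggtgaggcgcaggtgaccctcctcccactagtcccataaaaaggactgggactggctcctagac
Hamp2: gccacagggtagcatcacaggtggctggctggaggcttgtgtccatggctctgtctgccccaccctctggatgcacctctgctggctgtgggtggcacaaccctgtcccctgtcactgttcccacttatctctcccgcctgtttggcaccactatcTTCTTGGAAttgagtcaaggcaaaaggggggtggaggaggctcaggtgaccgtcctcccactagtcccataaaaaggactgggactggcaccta
The windows were identical at 227 of 247 aligned bases (91.9%). GGCGCC was present in the window of *Hamp* and not in that of *Hamp2*. The difference within it is G106A (*Hamp* first, positions counted back from 1 at the base before the RefSeq start of *Hamp*). The STAT core was present in both windows, and no difference fell inside it. In GENCODE M21 the *Hamp2* gene begins at chr7:30924681, upstream of its window, which therefore lies inside the annotated gene. The bases before that GENCODE start were not searched. Among 32851 RefSeq windows of this length, 9.59% held GGCGCC and 7.02% held TTCNNNGAA.

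The core of the metal-responsive element that MTF1 binds was spelled TGCACNC or TGCGCNC and sought on both strands of the same windows, which RefSeq gave for 8 of the 10 members. It occurred 3 times in the window of *Mt2*, 1 time in that of *Mt1* and 2 times, overlapping on opposite strands, in 1 of the 2 windows of *Tfrc*, which also held GGCGCC. At least 1 match was present in 21.4% of all windows and 3 or more in 1.26%. The RefSeq start of *Mt1* lies upstream of the start of 2 of its 3 coding transcripts in GENCODE M21, so its window does not reach the bases just before those starts.

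The libraries held 16944723 to 21044292 counts on genes. The hepatocyte markers examined, 12 in number, all passed the filter on low counts. Their summed level was 68434 to 81596 counts per 1000000 counts (CPM) across the C75S libraries and 76683 to 84505 across the WT libraries. Most of it was *Alb*, at 60607 ± 5471 CPM (C75S) and 67143 ± 3618 CPM (WT). Of the 12, 2 had an edgeR adjusted p-value under 0.05, *Cyp2e1* and *Fga*, both higher in C75S, against 3.11% of all tested genes. Of 12 Kupffer cell and macrophage markers, *Cd68* stood at 118 ± 21.9 CPM (C75S) and 117 ± 16.2 CPM (WT), and the other 11 had means under 1 CPM in each genotype; *Adgre1* had 1 read over all 6 libraries, *Clec4f* 4 and *Timd4* 1. The red cell genes *Hba-a1*, *Hba-a2*, *Hbb-bs*, *Hbb-bt* and *Slc4a1* had 0 reads. Multimapping reads are not in these counts, so reads shared between globin genes would not be seen. *Alas2*, the red cell form of the first heme enzyme, was at 4.48 ± 0.650 CPM (C75S) and 4.65 ± 0.540 CPM (WT). The summed level of 12 endothelial markers was 45.8 to 57.3 CPM (C75S) and 44.5 to 54.9 CPM (WT). Of the 10 tested markers, 8 were above 0 on the log2 scale (C75S over WT), against 6259 of all 12741 tested genes. Their median log2 fold change was 0.29, and 0 were called. The libraries of 3 markers, *Pecam1*, *Kdr* and *Lyve1*, did not overlap, with C75S higher, against 18.0% of all tested genes. The other markers overlapped, and *Stab2* alone was at 24.9 ± 4.88 CPM (C75S) and 26.4 ± 5.75 CPM (WT). The sum over 10 stellate cell markers was 54.6 to 71.5 CPM (C75S) and 70.6 to 92.8 CPM (WT). It was made up mostly of *Reln*, at 58.7 ± 8.70 CPM (C75S) and 75.2 ± 11.5 CPM (WT). The sum over 8 cholangiocyte markers, with *Cftr* at 0, was 181 to 235 CPM (C75S) and 161 to 169 CPM (WT), without overlap. The part of these cells in the results was not tested, and in bulk RNA fewer cells of a type and less RNA per cell cannot be told apart.

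Together the 10 genes took 1.34% to 1.40% of all gene counts in each library. Levels of different genes are compared here as CPM per kilobase (kb) of the principal transcript, as the WT mean ± SD (n = 3). *Trf*, the transferrin gene, stood at 3139.6 ± 117 and *Fth1*, the ferritin heavy subunit, at 3100.0 ± 112 CPM per kb. Their ranges over the 6 libraries overlapped, at 2944 to 3259 and 3026 to 3247. *Mt1* followed at 2232 ± 172, *Mt2* at 1258 ± 70.9 and *Ftl1*, the ferritin light subunit, at 520.3 ± 29.7 CPM per kb. The receptors and the exporter formed a lower tier, with *Tfr2* at 41.3 ± 1.15, *Slc40a1* at 32.7 ± 1.49 and *Tfrc* at 17.7 ± 0.646 CPM per kb. *Hamp* was at 1.72 ± 0.950 and *Hamp2* at 0.0743 ± 0.129 CPM per kb. From *Fth1* down to *Hamp2*, neighbours in this order had ranges that did not overlap. The order depended on the length used. Per kb of all annotated exons the top tier was *Trf* (2431), *Mt2* (1093), *Mt1* (984) and *Fth1* (830.2) in WT, and *Tfrc* (14.0) stood above *Slc40a1* (12.2).

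**Figure D1:**
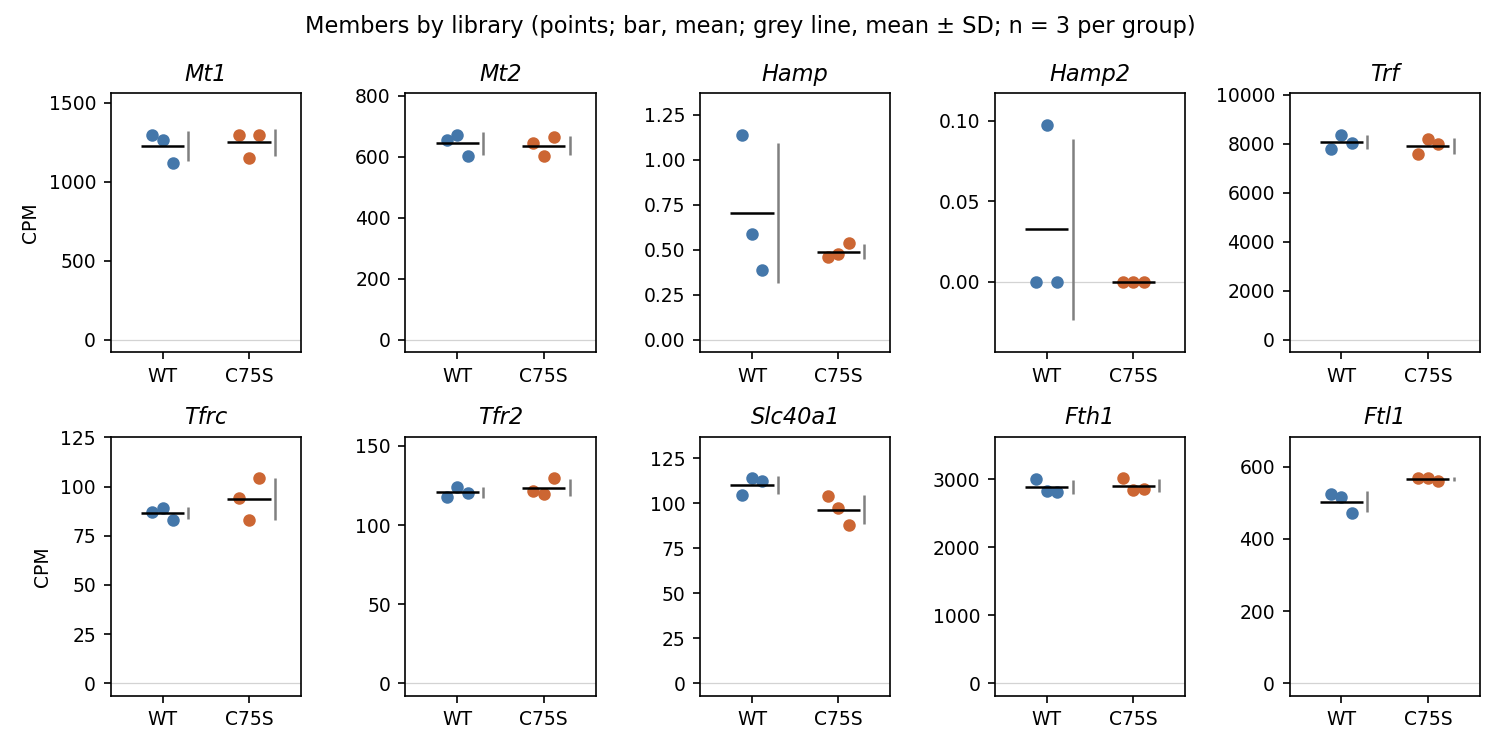
CPM of each of the 10 genes (y axis, linear, 1 scale per gene) in the 3 WT (blue) and 3 C75S (orange) libraries, with the mean as a black bar and the mean ± SD as a grey line. The groups are apart for *Slc40a1* (C75S lower) and *Ftl1* (C75S higher), and the points of the other 8 genes overlap between genotypes.

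To ask which hepatocyte transcripts differ when AEG-1 lacks this cysteine, C75S was set against WT in a model fitted over 12741 genes. Of the 10 members, 9 passed the filter on low counts, and none of the 9 was called by edgeR's quasi-likelihood test at a Benjamini-Hochberg adjusted p-value under 0.05 (a call, in what follows), against 3.11% of all tested genes (1.74% higher and 1.37% lower in C75S). At the unadjusted level of 0.05 there were 2 members, *Slc40a1* and *Ftl1*, against 13.4% of all tested genes. DESeq2 called 1 member (*Ftl1*) and limma-voom 0. The share of all genes that these tools called is not given here, and the 3.11% is that of edgeR. The libraries of the genotypes did not overlap for the same 2 members, against 18.0% of all tested genes (8.96% lower in C75S). The median log2 fold change, C75S over WT throughout, was 0.01 over the 9 members and -0.003 over all tested genes.

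Both metallothioneins were abundant, and their levels overlapped between genotypes. *Mt1* (chromosome 8, 94179082 to 94180327, plus strand) read 1298, 1152 and 1294 CPM in C75S replicates 1 to 3, and 1298, 1260.4 and 1119 CPM in WT replicates 1 to 3. *Mt2*, its neighbour on the same strand (chromosome 8, 94172664 to 94173568, plus strand), read 643, 601 and 663 CPM for C75S and 654, 672 and 602 CPM for WT. C75S replicate 2 was the lowest C75S library for both genes, WT replicate 3 was the lowest WT library for both, and the genotypes overlapped. By mean CPM *Mt1* ranked 61 and *Mt2* 148 among all gene rows. For *Mt1* the log2 fold change was 0.03 (95% interval -0.10 to 0.15, edgeR adjusted p = 0.912). For *Mt2* it was -0.02 (95% interval -0.13 to 0.10, edgeR adjusted p = 0.942). As percentages the intervals ran from -6.82% to 11.3% and from -8.66% to 7.02%.

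The ratio of *Mt1* to *Mt2* counts within a library was 2.02, 1.92 and 1.95 for C75S and 1.98, 1.88 and 1.86 for WT. It overlapped between genotypes (two-sided exact permutation p = 0.3, where 3 against 3 libraries cannot go below 0.1; Benjamini-Hochberg adjusted p = 0.4 over the 4 ratios examined). The transcripts were 79.2% identical over the 192 bases that aligned. *Gm45774*, an antisense gene, overlaps *Mt2*, and counting without strand kept 63.6% of the *Mt2* reads.

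Hepcidin mRNA was near the limit of detection in both genotypes. *Hamp* (chromosome 7, 30942368 to 30944032, minus strand) had 8, 10 and 10 reads in C75S replicates 1 to 3, and 24, 12 and 8 reads in WT replicates 1 to 3. That is 28 of 57048136 counts for C75S and 44 of 62507555 for WT. WT replicate 1 was the highest library, with an exact 95% Poisson interval of 15.4 to 35.7 reads, which covers counting error only and overlapped the interval of each other library. In CPM the libraries read 0.459, 0.474 and 0.535 for C75S and 1.14, 0.585 and 0.388 for WT, so the groups overlapped. The log2 fold change was -0.52 (SE 0.49, 95% interval -1.52 to 0.48, edgeR adjusted p = 0.709), an interval that spans 0. It became 0.01 when WT replicate 1 was left out. *Hamp* ranked 12364 by mean CPM.

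*Hamp2*, the second mouse hepcidin gene (chromosome 7, 30922372 to 30924681, minus strand), had 2 reads in WT replicate 2 and 0 in each of the other 5 libraries, and was not tested. By the usual limit for a count of 0, which is one-sided and so below the upper end of the Poisson interval above, up to 3 reads are allowed, or 0.142 to 0.172 CPM in those libraries, so no direction can be read. The transcripts of *Hamp* and *Hamp2* were 93.1% identical over 417 aligned bases. Reads that matched both equally well were set aside as multimapping, so both levels are uncertain.

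**Figure D2:**
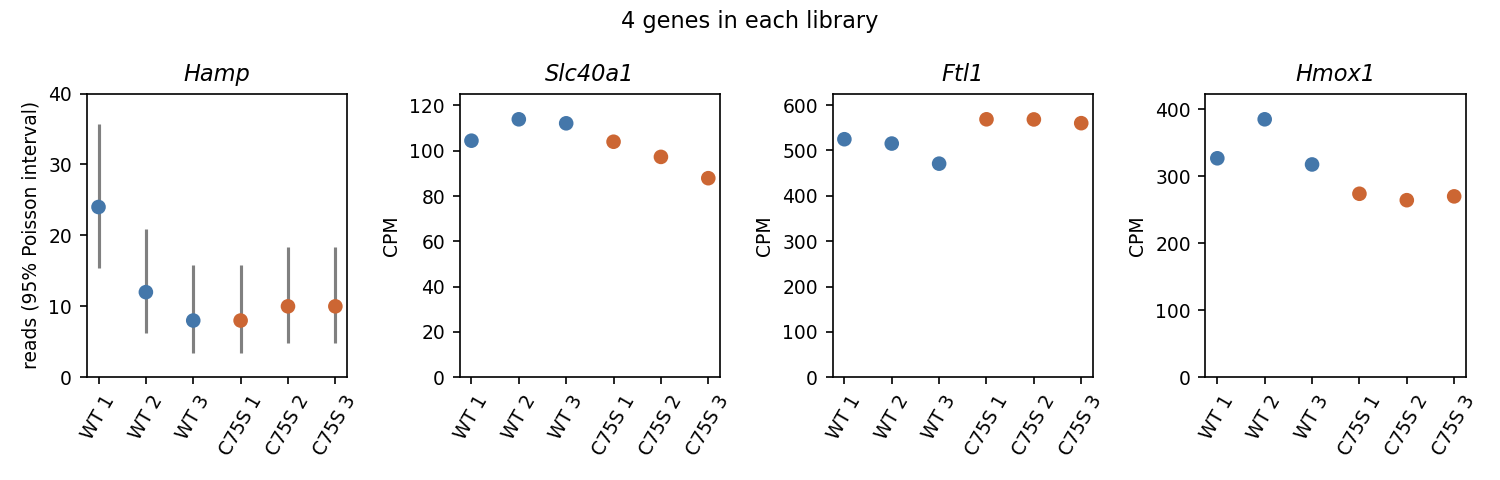
Reads of *Hamp* with exact 95% Poisson intervals (first panel) and CPM of *Slc40a1*, *Ftl1* and *Hmox1* (other panels), 1 point per library, with y axes from 0. WT replicate 1 is the highest library for *Hamp*, while *Slc40a1* and *Hmox1* are lower and *Ftl1* higher in each C75S library than in each WT library.

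Transferrin, the plasma carrier of iron, was abundant and even. *Trf* (chromosome 9, 103204001 to 103230444, minus strand) ranked 8 among all gene rows, and read 7569, 8203 and 8014 CPM for C75S and 7781, 8379.5 and 8055 CPM for WT. The groups overlapped, and the log2 fold change was -0.03 (95% interval -0.15 to 0.10, edgeR adjusted p = 0.907). As a percentage the interval ran from -9.69% to 6.84%.

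The transferrin receptors overlapped between genotypes. *Tfrc* (chromosome 16, 32608920 to 32632794, plus strand) encodes transferrin receptor 1, which takes iron-loaded transferrin into cells. Its libraries read 94.2, 83.0 and 104 CPM for C75S and 87.3, 89.2 and 83.0 CPM for WT. C75S replicate 3 was the highest, and C75S replicate 2 was level with the lowest WT library. The log2 fold change was 0.12 (95% interval -0.02 to 0.25, edgeR adjusted p = 0.483), with 0.03 when C75S replicate 3 was left out and 0.20 when C75S replicate 2 was. *Tfr2* (chromosome 5, 137569840 to 137587481, plus strand) encodes transferrin receptor 2, a hepatocyte sensor of iron-loaded transferrin. It read 122, 119 and 129.7 CPM for C75S and 118, 124 and 120.1 CPM for WT, with a log2 fold change of 0.03 (95% interval -0.07 to 0.14, edgeR adjusted p = 0.844). The ratio of *Tfr2* to *Tfrc* counts was 1.29, 1.44 and 1.24 for C75S and 1.35, 1.39 and 1.45 for WT (exact permutation p = 0.3). *Tfr2* had more counts than *Tfrc* in every library. The ratio of *Trf* to *Tfr2* counts was 64.2 ± 3.83 (C75S) and 66.9 ± 0.670 (WT; exact permutation p = 0.4).

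Ferroportin mRNA was lower in each C75S library than in each WT library, without passing the threshold. *Slc40a1* (chromosome 1, 45908068 to 45926523, minus strand) encodes ferroportin, the iron exporter. It read 104.0, 97.3 and 87.9 CPM for C75S and 104.5, 114 and 112 CPM for WT. Replicate 1 of each genotype was almost level, and the other libraries lay further apart. The log2 fold change was -0.19 (SE 0.06, 95% interval -0.31 to -0.07), or -12.5%, with an unadjusted p-value of 0.00329 and an edgeR adjusted p-value of 0.0843. The adjusted p-value was 0.0294 when C75S replicate 1 was left out. It was 0.406, with a log2 fold change of -0.13, when C75S replicate 3 was left out. Macrophages also express ferroportin. The summed Kupffer cell and macrophage markers were 97.2 to 141 CPM (C75S) and 104 to 135 CPM (WT), an overlapping range made up almost wholly of *Cd68*. The part of macrophages in the *Slc40a1* values was not tested.

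The ferritin subunits differed in their values. *Fth1* (chromosome 19, 9980598 to 9985098, plus strand), the heavy subunit that oxidises incoming iron, ranked 26 by mean CPM. It read 3017, 2835 and 2862 CPM for C75S and 2999, 2829 and 2812 CPM for WT, which overlapped, with a log2 fold change of 0.01 (95% interval -0.10 to 0.13, edgeR adjusted p = 0.96). *Ftl1* (chromosome 7, 45457944 to 45459884, minus strand), the light subunit that helps form the iron core, read 569, 568 and 560.2 CPM for C75S and 525, 515 and 471 CPM for WT. Each C75S library lay above each WT library, with WT replicate 3 the lowest. The log2 fold change was 0.17 (SE 0.05, 95% interval 0.06 to 0.28), or 12.3%. The unadjusted p-value was 0.00366 and the edgeR adjusted p-value 0.0894, while DESeq2 gave 0.0429. Leaving out each library in turn gave edgeR adjusted p-values from 0.0588 to 0.361. The ratio of *Fth1* to *Ftl1* counts was 5.30, 4.99 and 5.11 for C75S and 5.72, 5.49 and 5.97 for WT. All 3 C75S ratios lay below all 3 WT ratios, with an exact permutation p of 0.1, the smallest that 3 against 3 can give, and 0.4 after Benjamini-Hochberg adjustment over the 4 ratios.

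The count of *Ftl1* is less certain than that of the other abundant members. In GENCODE M21, 5 other genes were at least 95% identical to its transcript over at least 50% of its length, and they had 27 reads in all 6 libraries against 63694 on *Ftl1*. The longest match was *Ftl1-ps1*, at 99.6% identity. *Gm10252* overlaps *Ftl1* on the opposite strand, and counting without strand left 734 of the 63694 reads. *Trf* had 1 such near copy, with 0 reads, and the other 8 members had none.

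**Figure D3:**
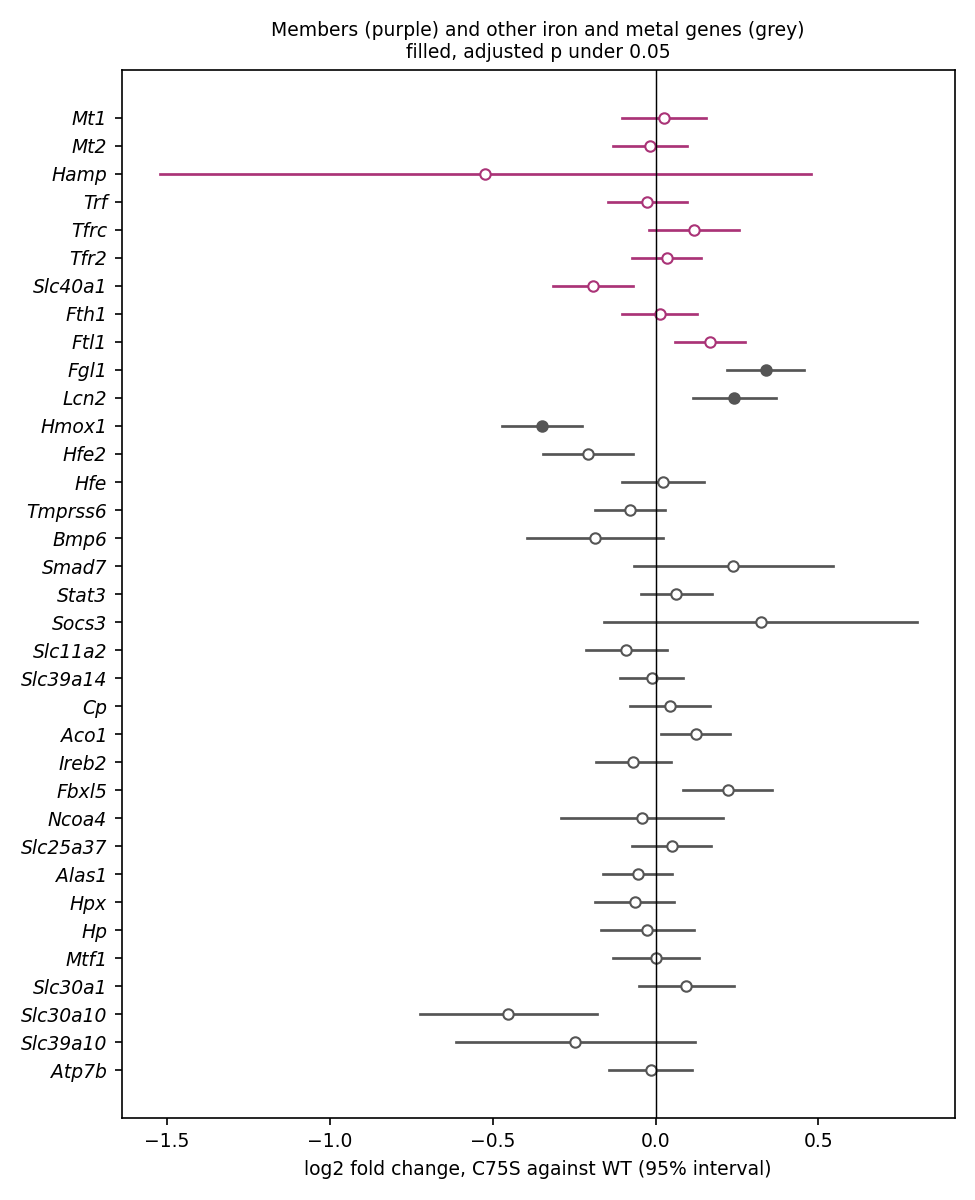
Log2 fold change, C75S over WT (x axis), with its 95% interval for the 9 tested members (purple) and other named iron and metal genes (grey). Filled points passed an adjusted p-value of 0.05 in edgeR: *Fgl1*, *Lcn2* and *Hmox1*. *Hamp* has the widest interval of those drawn.

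The rest of the pathway was read from 7 lists with 117 genes, of which 110 passed the filter. Of these, 3 were called, 2 higher and 1 lower, which is 2.73% against 3.11% of all tested genes. At the unadjusted level of 0.05 there were 19 of the 110, against 13.4% of all tested genes. The median log2 fold change was 0.00 over the 110.

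In the list of BMP-SMAD control of hepcidin, 19 of 21 genes were tested, 1 rose and 0 fell, against 3.11% of all tested genes called. An unadjusted edgeR p-value under 0.05 was found for 6 of the 19, against 13.4% of all tested genes. These 6 lay on both sides of 0, and their libraries did not overlap between genotypes, against 18.0% of all tested genes. The list's median log2 fold change was -0.07. *Fgl1*, a secreted liver protein known to bind BMP6, was the gene that rose. It read 212, 189 and 222 CPM for C75S and 156, 163 and 174 CPM for WT, with no overlap. Its log2 fold change was 0.34 (SE 0.06, edgeR adjusted p = 0.000858) and ran from 0.29 to 0.40 with each library left out in turn. Hemojuvelin (*Hjv*, annotated as *Hfe2*), the BMP co-receptor that drives hepcidin, read 54.9, 60.4 and 53.7 CPM for C75S and 71.7, 61.9 and 61.6 CPM for WT. Its groups did not overlap, and the log2 fold change was -0.21 (SE 0.07, edgeR adjusted p = 0.109). *Bmp2*, a BMP ligand made mainly by endothelial cells, was also apart, at 1.03, 1.23 and 1.66 CPM for C75S and 0.855, 0.390 and 0.728 CPM for WT (log2 fold change 0.99, edgeR adjusted p = 0.23). *Bmp6*, the ligand that reports body iron, was at 16.7 ± 2.02 CPM (C75S) and 19.1 ± 1.35 CPM (WT). *Tmprss6*, the protease that cleaves hemojuvelin, was at 261 ± 17.9 and 276 ± 4.99 CPM. *Hfe*, a partner of the transferrin receptors, was at 51.7 ± 0.435 and 50.9 ± 2.65 CPM. These 3 overlapped between genotypes, with edgeR adjusted p-values from 0.456 to 0.925. Among targets of the signal, *Smad7* was at 8.06 ± 0.418 and 6.84 ± 1.18 CPM (edgeR adjusted p = 0.526), and *Id1*, with 53 reads in all libraries, was not tested, although its C75S libraries (0.632, 0.474 and 0.481 CPM) lay above its WT libraries (0.380, 0.439 and 0.291 CPM). *Furin*, another protease that cleaves hemojuvelin, read 441, 424 and 455 CPM for C75S and 472, 517 and 500.2 CPM for WT, without overlap. Its log2 fold change was -0.17 (edgeR adjusted p = 0.0691), and DESeq2 called it.

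All 8 genes of interleukin-6 and STAT3 signalling were tested and 0 were called by edgeR, DESeq2 or limma-voom. In each tool 1 had an unadjusted p-value under 0.05. Over all tested genes, edgeR called 3.11% and gave 13.4% at that unadjusted level. The median log2 fold change was 0.00. *Stat3* was at 183 ± 5.30 CPM (C75S) and 175 ± 11.1 CPM (WT). *Socs3*, its feedback inhibitor, was at 3.25 ± 0.611 and 2.60 ± 0.523 CPM (edgeR adjusted p = 0.607).

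Among genes of iron import, reduction and oxidation, 10 of 12 were tested, 1 rose and 0 fell, against 3.11% of all tested genes called. The list's median log2 fold change was 0.05. *Lcn2*, a secreted protein that binds iron-carrying siderophores and is better known as an acute-phase protein, was the gene that rose. It read 1684, 1589.7 and 1854 CPM for C75S and 1489, 1505 and 1342 CPM for WT, with no overlap. Its log2 fold change was 0.24 (SE 0.06, edgeR adjusted p = 0.029). The log2 fold change ran from 0.18 to 0.29 with each library left out in turn. The call was lost without C75S replicate 3 (adjusted p = 0.172), WT replicate 1 (0.0512), WT replicate 2 (0.0772) or WT replicate 3 (0.19). The iron importers *Slc11a2* and *Slc39a14* stood at 61.6 ± 3.53 and 203 ± 3.18 CPM (C75S) against 65.6 ± 2.71 and 204 ± 4.85 CPM (WT). Ceruloplasmin (*Cp*), the plasma ferroxidase, was at 4121 ± 271 and 3999 ± 112 CPM. These 3 had edgeR adjusted p-values from 0.566 to 0.95.

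In the list of iron regulatory proteins and ferritin turnover, 10 of 11 genes were tested and 0 were called by edgeR, DESeq2 or limma-voom. In each tool 2 had an unadjusted p-value under 0.05. Over all tested genes, edgeR called 3.11% and gave 13.4% at that unadjusted level. The median log2 fold change was 0.02. *Fbxl5*, which marks iron regulatory proteins for degradation when iron is high, read 61.2, 61.6 and 55.7 CPM for C75S and 47.7, 49.6 and 55.7 CPM for WT. C75S replicate 3 and WT replicate 3 were level, and the log2 fold change was 0.22 (SE 0.07, edgeR adjusted p = 0.0713). The adjusted p-value was 0.0471 when C75S replicate 3 was left out and 0.0273 when WT replicate 3 was. *Aco1*, iron regulatory protein 1, was at 265 ± 13.5 CPM (C75S) and 243 ± 9.89 CPM (WT), with an edgeR adjusted p of 0.258. *Ireb2*, iron regulatory protein 2, was at 90.1 ± 5.73 and 94.5 ± 2.61 CPM, and *Ncoa4*, the receptor that carries ferritin to lysosomes, at 36.7 ± 1.93 and 37.8 ± 7.12 CPM.

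All 15 genes of mitochondrial iron import and iron-sulfur cluster assembly were tested, and edgeR, DESeq2 and limma-voom called 0. At an unadjusted p-value under 0.05 there was 1 in edgeR and limma-voom and 0 in DESeq2. Over all tested genes, edgeR called 3.11% and gave 13.4% at that unadjusted level. The list's median log2 fold change was 0.04. *Slc25a37*, the iron importer of the inner membrane, was at 63.9 ± 3.28 CPM (C75S) and 61.7 ± 2.03 CPM (WT).

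All 24 genes of heme synthesis, breakdown and scavenging were tested, 0 rose and 1 fell, against 3.11% of all tested genes called. An unadjusted edgeR p-value under 0.05 was found for 5 of the 24, against 13.4% of all tested genes. The list's median log2 fold change was -0.02. The gene that fell was *Hmox1* (chromosome 8, 75093621 to 75100589, plus strand), heme oxygenase 1, which opens the heme ring and frees its iron. It read 274, 264 and 269.9 CPM for C75S and 327, 385 and 317 CPM for WT. WT replicate 2 was the highest library and the groups did not overlap. The log2 fold change was -0.35 (SE 0.06, edgeR adjusted p = 0.000997). It was -0.26 (adjusted p = 0.0169) when WT replicate 2 was left out. Hemopexin (*Hpx*), the heme scavenger, read 7349, 8072 and 7951 CPM for C75S and 8195, 8086 and 8164 CPM for WT. Its groups were apart by a narrow gap, and the log2 fold change was -0.06 (adjusted p from edgeR, 0.697). Haptoglobin (*Hp*), which binds free hemoglobin, was at 2983 ± 332 and 3036 ± 155 CPM, and *Alas1*, the first enzyme of heme synthesis in liver, at 269.7 ± 8.79 and 280.0 ± 15.9 CPM.

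In the list of zinc and copper handling, 24 of 26 genes were tested and 0 were called by edgeR, DESeq2 or limma-voom. In each tool 3 had an unadjusted p-value under 0.05. Over all tested genes, edgeR called 3.11% and gave 13.4% at that unadjusted level. The list's median log2 fold change was -0.01. *Mtf1*, the metal sensor of the metallothionein genes, was at 43.2 ± 1.15 CPM (C75S) and 43.2 ± 1.02 CPM (WT), with a 95% interval of -0.13 to 0.13 on the log2 scale. *Slc30a1*, a zinc exporter and MTF1 target, was at 54.0 ± 4.82 and 50.5 ± 3.90 CPM (edgeR adjusted p = 0.627). Both overlapped between genotypes. *Slc30a10*, a manganese exporter, read 7.06, 6.78 and 7.33 CPM for C75S and 9.35, 10.5 and 9.12 CPM for WT. Its groups did not overlap, and the log2 fold change was -0.45 (SE 0.13, edgeR adjusted p = 0.0626). In this list 5 of the 24 tested genes had groups that did not overlap, against 18.0% of all tested genes. Some zinc importers were among them, in both directions, while others of the *Slc39* family overlapped. *Slc39a4* was higher, at 92.6, 87.2 and 79.1 CPM for C75S and 74.6, 76.0 and 76.9 CPM for WT (edgeR adjusted p = 0.0913), and *Slc39a1* was higher, at 56.4 ± 0.796 and 51.9 ± 2.63 CPM (edgeR adjusted p = 0.4). *Slc39a10* was lower, at 3.96, 4.03 and 3.74 CPM for C75S and 4.51, 4.48 and 4.95 CPM for WT (edgeR adjusted p = 0.606). The copper transporter *Atp7b* was at 45.2 ± 0.616 and 45.7 ± 0.561 CPM. The minor metallothioneins were low, with 79 reads of *Mt3* and 23 of *Mt4* in all 6 libraries.

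**Figure D4:**
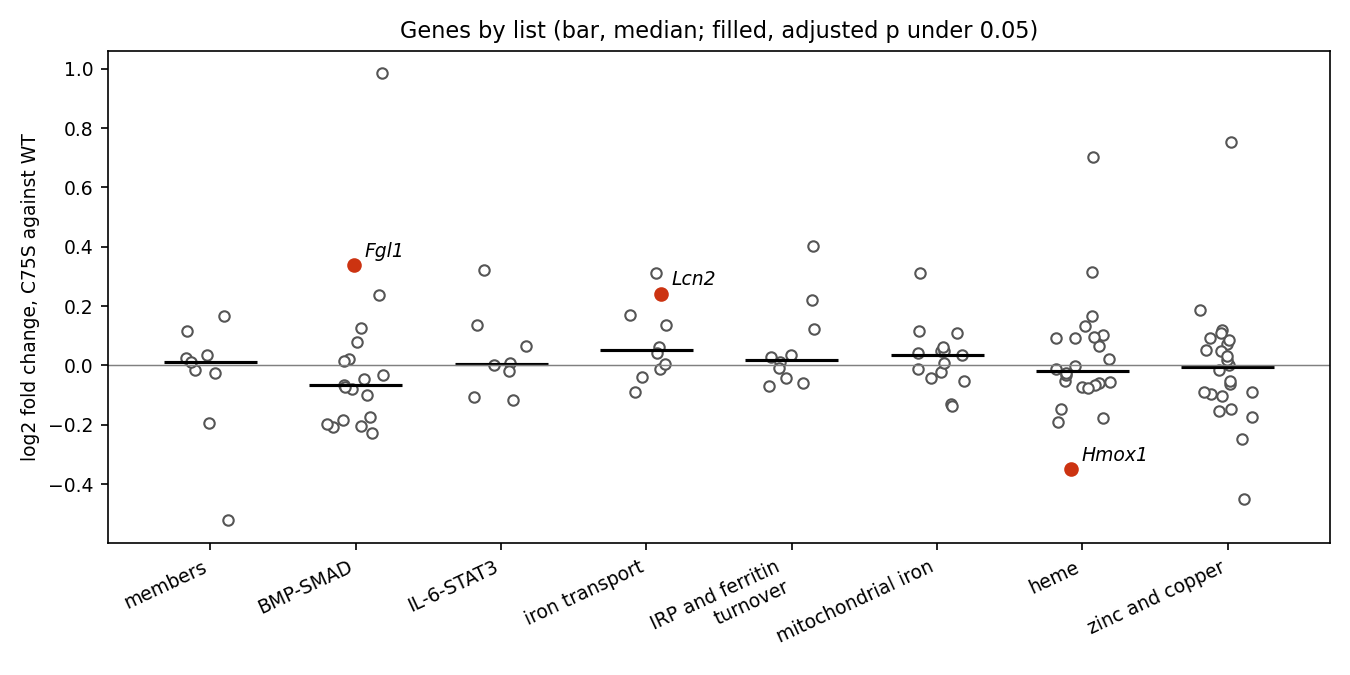
Log2 fold change, C75S over WT (y axis), of each tested gene by list (x axis), with the median as a black bar. Filled points passed an adjusted p-value of 0.05 in edgeR, with *Fgl1* and *Lcn2* above 0 and *Hmox1* below it. The list medians lie between -0.07 and 0.05.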

How the data were processed

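Hepatocyte RNA-seq libraries were grouped by their titles. The deposited files hold raw counts of reads for each Ensembl gene, 1 file per sample, laid out as STAR gene counts without strand and by strand. Trim Galore 0.6.6, STAR 2.7.9a, edgeR 3.36.0 and the builds mm10 and GRCm38 are named, per the submitters' processing notes; settings and annotation release are not given in the sources used here. The reverse-strand counts, 33.3 times the forward ones in total, were used without the 4 summary rows. In these rows, multimapping reads made up 18.0% to 18.5% of a library, unmapped reads 4.37% to 5.81% and ambiguous reads 0.891% to 0.926%. Multimapping reads are not in the gene counts, which lowers genes with near-identical copies.

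Genes were filtered with filterByExpr (minimum count 10, minimum total 15) and scaled with TMM, and edgeR 4.0.16 under R 4.3.3 gave a robust two-sided quasi-likelihood F-test on genotype, with Benjamini-Hochberg adjustment over all 12741 tested genes. The standard error is the size of the log2 fold change over the square root of F. CPM uses TMM-scaled library sizes. The procedure was also run on counts simulated from the means and dispersions of these libraries. Such a run cannot show that the model holds for the real data, and its outcome is not given here. Symbols and positions are from GENCODE M21 (GRCm38), which holds 55141 of the 55487 identifiers; *Hjv* was matched by synonym. Transcript lengths are of the best APPRIS transcript, then the lowest transcript number. Near copies were sought with BLAST 2.17.0, and promoter windows are from RefSeq.

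A count of 3 equals 0.143 to 0.177 CPM before TMM scaling. Replicates differed beyond counting noise (chi-square per degree of freedom 4.05 to 8.99 between pairs). The labels give no batch. Members and lists were chosen with earlier results of these data known. The genes named are all members, called list genes (up to 5 per list) and fixed pathway anchors. *Furin*, *Bmp2*, *Slc39a4*, *Slc39a1*, *Mt3*, *Mt4*, *Alb*, *Cyp2e1*, *Fga*, *Reln* and the single endothelial markers were named after their values were seen. Alternatives were other scalings (RLE, upper quartile, library size), 2 other filters, DESeq2 1.42.0, limma-voom (limma 3.58.1), unstranded counts, a replicate block, each library left out, and fits without mitochondrially encoded genes and *Alb*.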

Additional observations from a re-analysis of the deposited data

How the results depend on the processing

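Over 16 alternatives, *Mt1*, *Mt2*, *Hamp*, *Trf*, *Tfrc*, *Tfr2* and *Fth1* were called in none of those that tested them; *Hamp* was not tested at 1 CPM in 3 libraries. The count of members called was 0, against 1 with no filter beyond 1 count (*Slc40a1*, adjusted p = 0.0239), 1 with DESeq2 (*Ftl1*), and 0 to 1 with each library left out in turn (1 without C75S replicate 1, *Slc40a1*); the cause was not tested. The list genes called numbered 3, against 6 with no filter, *Hfe2* and *Fbxl5* among them, 4 with DESeq2 and 2 to 4 with each library left out. How many of all genes DESeq2 called is not given here, so its calls of members and list genes have no share beside them. Over all genes 396 were called (222 higher, 174 lower), against 573 with no filter (290 and 283) and 201 to 355 with each library left out, with 253, 201 and 246 without C75S replicate 1, WT replicate 2 and WT replicate 3. *Fgl1* and *Hmox1* were called in all 16 alternatives. *Ftl1* was at 0.01 with unstranded counts, which kept 1.15% of its reads. With the replicate number as a block, 480 genes were called (388 shared), with 0 members and 3 list genes. Deviations of same-numbered libraries correlated at 0.0169, -0.0404 and 0.0254, all below 0.1. Over every C75S and WT library the correlations ran from -0.0437 to 0.0254, so they showed no pairing by number. They cannot exclude one, and the labels do not say whether libraries were paired. Estimates changed sign in 24 cases over 12 genes, none called and all but *Hamp* (-0.52) near 0, with adjusted p-values of at least 0.851. *Mtf1* was at -0.00196 with no filter and *Mt2* at 0.00537 with unstranded counts. The others came from leaving out 1 library, with ranges of -0.0357 to 0.081 for *Mt1*, -0.0611 to 0.0234 for *Mt2*, -0.811 to 0.0111 for *Hamp*, -0.0504 to 0.00649 for *Trf*, -0.00224 to 0.0583 for *Tfr2*, -0.0159 to 0.0441 for *Fth1*, -0.0109 to 0.0627 for *Hfe*, -0.0288 to 0.00532 for *Slc39a14*, -0.0116 to 0.0757 for *Cp*, -0.189 to 0.0542 for *Ncoa4*, -0.109 to 0.0505 for *Hp* and -0.0189 to 0.0205 for *Mtf1*. Depth limits *Hamp* and *Hamp2*, with 72 and 2 reads in all.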
